A study of Mus musculus with 13 samples.

Results

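The genes described here are the G protein-coupled receptors, and the proteins once taken for such receptors, that mouse nomenclature still calls Gpr and a number. G protein-coupled receptors cross the membrane with a bundle of helices and pass a signal from outside the cell to G proteins inside it, which set cAMP, calcium or the cytoskeleton. The Gpr names were given before a ligand was known, so the set mixes orphans with receptors since matched to fatty acids, protons, oxysterols or lysophospholipids, and in fat these receptors are known both from adipocytes, where some control lipolysis, and from the leukocytes that enter the tissue in obesity. Members were all genes whose platform symbol is Gpr followed by a digit, read by a probe set that names 1 gene, with Gpr50 left out and the probe set of highest mean standing for a gene that has several. That gave 67 of the 18820 genes tested. The adhesion receptors that once bore Gpr numbers carry Adgr names in this annotation and are given separately.

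RNA came from epididymal white adipose tissue, a visceral depot, of male mice aged 18 weeks. From the age of 6 weeks they ate either chow, with 13% of its energy as fat, or a diet with 60%, during 12 weeks. The wild-type mice were C57/BL6 and the knockout mice were of the line B6.129P2-P2rx7tm1Gab/J, backcrossed for 7 generations; the labels do not say that they were littermates. P2X7 is an ion channel that ATP outside the cell opens. Wild-type mice gave 3 arrays per diet, and knockouts 3 on chow and 4 after the high-fat diet. Whether every array stands for its own animal is not stated in the labels, and p-values therefore reflect the spread between these samples, which may be technical.

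The deposited values are log2 expression values, so a difference of 1 is a doubling. They ran from 1.70 to 13.86, the median per array lay between 5.72 and 5.88, and within a group r between arrays, across genes, was 0.993 to 0.998. Adipocyte markers were high throughout, with a list mean between 11.38 and 12.32 on every array. The mean of 9 transcripts known from liver ranged from 8.18 to 9.03 on chow and from 6.33 to 8.16 after the diet in wild-type mice. In knockouts it ranged from 6.81 to 6.96 on chow and from 6.13 to 7.35 after the diet. Wild-type arrays on chow thus stood above all others, and a fit with this liver score as covariate is given beside each call that it ends.

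High-fat diet raised 14 and lowered 10 of the 67 Gpr genes in wild-type mice, with p from limma, adjusted by Benjamini and Hochberg's method across the 18820 genes, under 0.05. In knockout mice it raised 11 and lowered 10. Of these, 10 rose and 6 fell in both genotypes. Gpr65, a proton-sensing receptor of immune cells, Gpr176, an orphan receptor known from the circadian clock, and Gpr137b, a lysosomal membrane protein, rose most, and Gpr165, an orphan, Gpr4, the proton-sensing receptor of endothelium, and Gpr146 showed the largest measured falls. No Gpr gene passed for genotype or for the interaction of diet and genotype.

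The shares that passed were near those of all genes. Among all genes, 35.8% passed in wild-type mice (17.7% higher and 18.1% lower), and among Gpr genes 35.8%. In knockout mice 34.2% of all genes passed (14.5% higher and 19.7% lower), and 31.3% of Gpr genes. At least 1.5-fold, 10 Gpr genes rose and 3 fell in wild-type mice (8.76% and 7.33% of all genes), and 9 and 2 in knockout mice (7.09% and 6.05%). The diets did not overlap for 16 Gpr genes higher and 13 lower in wild-type mice (20.8% and 22.5% of all genes), and for 13 and 15 in knockouts (17.5% and 25.6%). The median log2 change of Gpr genes was -0.0016 in wild-type and -0.04 in knockout mice, against -0.03 and -0.06 over all genes. Of all genes, 12.3% rose and 13.5% fell in both genotypes. With arrays centred on their medians the wild-type split became 13 higher and 14 lower, and with the liver score as covariate it became 8 and 4. The number of falls in wild-type mice was 6 without replicate 2 on chow and also 6 without replicate 1 on high-fat diet. In knockout mice it was 6 without replicate 3 on high-fat diet.

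**Figure D1:**
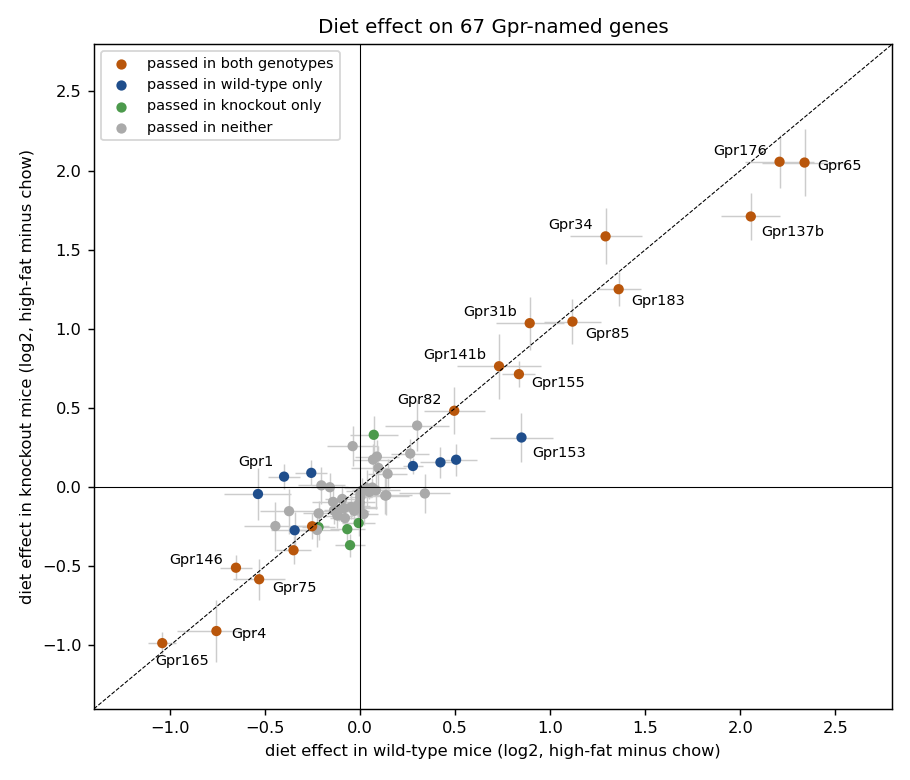
Diet effect in wild-type mice (horizontal axis) against that in knockout mice (vertical axis) for the 67 Gpr genes, in log2 units, with bars of 1 standard error; colours show where a gene passed and the dashed line marks equal effects. Genes with large effects lie near the dashed line, from Gpr165 at -1.04 and -0.99 to Gpr65 at 2.34 and 2.05.

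Many members were dim. Olfactory receptor genes (Olfr), 990 of which were measured, were taken as a reference for dim probe sets, since the files used here hold no detection calls. Whether fat expresses any of them was not tested. Their 95th percentile of mean level was 4.36, and 20 of the 67 Gpr genes lay below it in the mean of every group, among them the brain receptors Gpr26, Gpr37, Gpr101, Gpr151 and Gpr158, the retinal pigment cell receptor Gpr143 and the metabolite receptors Gpr119 and Gpr142. Of these 20, Gpr82 passed for diet in both genotypes, Gpr141 in wild-type mice only and Gpr15 in knockout mice only. The share of all genes below that level that passed was not counted, so these calls are not set against it. Of the other 47, 12 rose and 10 fell in wild-type mice and 10 rose and 9 fell in knockout mice, where 22.9%, 22.7%, 18.7% and 24.3% of all genes above the same level did. In 15 of the 67 genes, 3 or more arrays held 1 identical value to 4 decimals, most often in Gpr151, with 8 arrays at 3.35. Gpr19, Gpr25, Gpr55, Gpr171 and Gpr174 are among them. The 5 highest mean levels were those of Gpr107 (9.19), Gpr108 (9.07), Gpr137b (9.02), Gpr146 (8.94) and Gpr89 (8.86), and the 5 lowest those of Gpr101 (3.40), Gpr61 (3.38), Gpr151 (3.34), Gpr158 (3.29) and Gpr149 (3.09). These are levels of single probe sets, which differ in how strongly they bind, so they do not rank the genes by RNA.

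The promoters of the genes with the largest changes are shown to set these regions side by side. Windows from 250 bases before to 50 after the start, on the strand of the gene, were in the RefSeq tables of the GRCm38.p6 build for 50 of the 67 genes, and for 8 of the 10 genes that rose and 4 of the 6 that fell in both genotypes. Those printed are the largest 2 rises and the largest measured fall with an entry, at chr12:98268385-98268684, plus strand, for Gpr65, chr2:118373370-118373669, minus strand, for Gpr176, and chrX:96713218-96713517, plus strand, for Gpr165. Capitals mark matches, on either strand and without overlaps here, to GAGGAAG, a core of sites of the myeloid factor PU.1, to CACGTG, an E-box, to TGANTCA, the AP-1 site, and to TATAAA.
Gpr65: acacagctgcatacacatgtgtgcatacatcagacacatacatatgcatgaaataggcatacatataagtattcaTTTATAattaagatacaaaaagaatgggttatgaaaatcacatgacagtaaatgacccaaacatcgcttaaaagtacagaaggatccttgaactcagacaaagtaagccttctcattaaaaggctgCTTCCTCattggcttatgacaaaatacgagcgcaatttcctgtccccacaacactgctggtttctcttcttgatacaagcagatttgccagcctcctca
Gpr176: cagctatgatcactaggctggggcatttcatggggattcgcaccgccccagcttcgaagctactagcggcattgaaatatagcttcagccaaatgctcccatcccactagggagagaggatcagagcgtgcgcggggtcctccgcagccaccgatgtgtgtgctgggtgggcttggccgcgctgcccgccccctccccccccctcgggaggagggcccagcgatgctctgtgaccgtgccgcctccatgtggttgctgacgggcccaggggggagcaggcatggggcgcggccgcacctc
Gpr165: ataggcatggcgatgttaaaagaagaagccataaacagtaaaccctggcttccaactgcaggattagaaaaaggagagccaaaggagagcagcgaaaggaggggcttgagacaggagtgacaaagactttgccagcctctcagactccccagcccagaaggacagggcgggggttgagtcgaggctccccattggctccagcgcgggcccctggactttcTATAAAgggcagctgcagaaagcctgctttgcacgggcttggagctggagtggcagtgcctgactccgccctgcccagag
The Gpr65 window held a match to the PU.1 core and to TATAAA, the Gpr165 window held TATAAA, and the Gpr176 window held none of the 4. Of all 32851 windows of this length, 13.6% held the PU.1 core, 7.15% the E-box, 7.81% the AP-1 site and 13.6% TATAAA. Among the 64 windows of Gpr genes, 7 held the PU.1 core, 2 the E-box, 4 the AP-1 site and 7 TATAAA. Bases G and C made up 38.3% of the Gpr65 window, 66.3% of that of Gpr176 and 57% of that of Gpr165. A match describes the letters of the window and shows no bound site.

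Among proton-sensing receptors, which switch on as the fluid around a cell turns acid, Gpr65 and Gpr4 moved in opposite directions in both genotypes. Gpr65 on chow read 5.56, 5.17 and 5.46 in wild-type mice, while knockouts had 5.88, 5.32 and 5.90. After the high-fat diet wild-type arrays stood at 7.58, 7.55 and 8.07 and knockout arrays at 7.20, 8.05, 7.77 and 7.99. Every high-fat array lay above every chow array. The rise of Gpr65 was 2.34 ± 0.23 (log2 change ± SE) in wild-type mice, or 5.05-fold (adjusted p 3.1e-06), and 2.05 ± 0.21 in knockout mice, or 4.14-fold (adjusted p 7.06e-06). Gpr132, a relative found on macrophages and lymphocytes, rose in wild-type mice by 0.42 ± 0.11 (adjusted p 0.00631), from 6.45, 6.44 and 6.46 to 7.00, 6.72 and 6.89. It did not pass in knockout mice (0.16 ± 0.10, adjusted p 0.251), and the difference between the genotypes was not past the threshold either (interaction adjusted p 0.571). Knockout values of Gpr132 were 6.80, 6.56 and 6.50 on chow and 6.68, 6.96, 6.77 and 6.69 after the diet, which overlapped. With the liver score as covariate its wild-type rise missed the threshold (0.33, adjusted p 0.141).

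Gpr4, the endothelial member, read 7.96, 8.74 and 8.44 in wild-type mice on chow and 7.33, 8.06 and 7.48 on high-fat diet. The diets overlapped there, since 1 chow array lay below 1 high-fat array. In knockout mice the Gpr4 values were 8.60, 8.60 and 8.59 on chow and 8.02, 7.57, 7.69 and 7.46 on high-fat diet, with no overlap. Gpr4 fell by 0.76 ± 0.21 (adjusted p 0.0109) in wild-type mice, and the knockout fall was 0.91 ± 0.19 (adjusted p 0.00242). The wild-type fall missed the threshold without replicate 2 on chow (-0.58, adjusted p 0.0556), without replicate 1 on high-fat diet (-0.61, adjusted p 0.0531), in a fit of the wild-type arrays alone (adjusted p 0.0594) and with the liver score as covariate (-0.48 ± 0.27, adjusted p 0.259). Of 10 endothelial markers measured, 0 rose and 7 fell in wild-type mice, where 18.1% of all genes fell. In knockout mice 0 of these markers rose and 2 fell, where 19.7% of all genes fell. The mean of the markers went from 10.03 to 10.06 across wild-type arrays on chow and from 9.21 to 9.90 after the diet. Across knockout arrays it went from 9.90 to 10.08 on chow and from 9.58 to 9.92 after the diet, and their part in the fall of Gpr4 was not tested. In whole tissue, fewer cells of a type and less RNA per cell cannot be told apart.

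**Figure D2:**
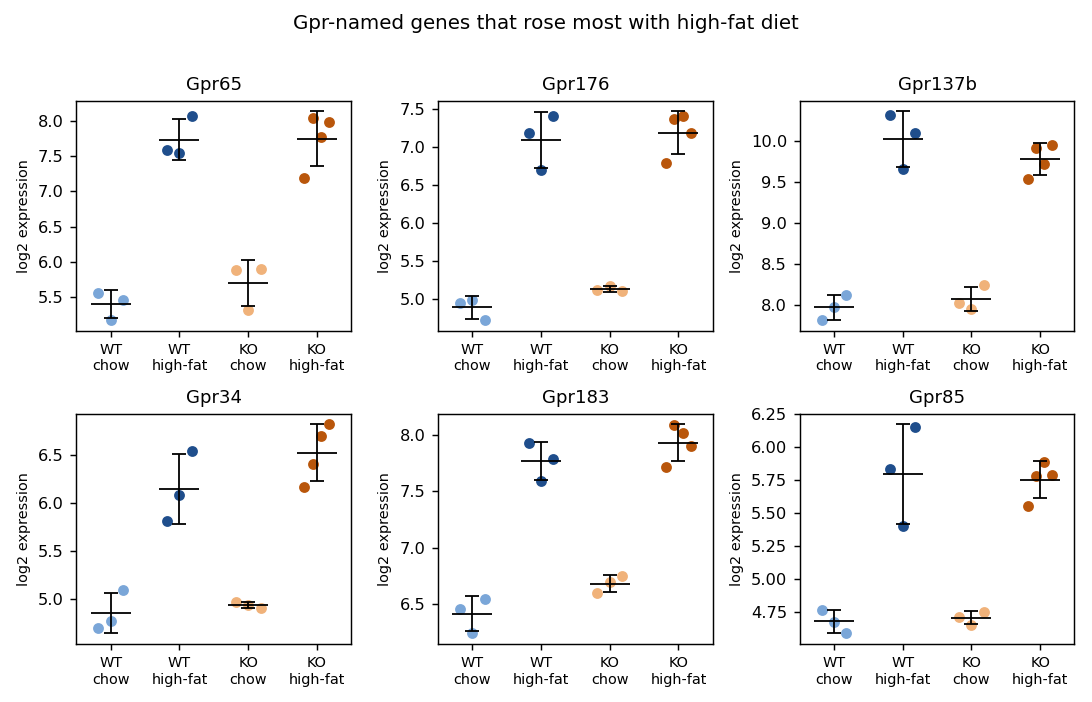
Log2 expression of the 6 Gpr genes with the largest rises in both genotypes, by group; points are arrays and black bars the mean and standard deviation. In each panel all high-fat arrays lie above all chow arrays of both genotypes.

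Members grouped as receptors for lipids and chemoattractants on leukocytes, with orphans such as Gpr82 among them, numbered 14. Of these, 4 rose and 2 fell in wild-type mice, where 17.7% and 18.1% of all genes did. In knockout mice 3 rose and 2 fell, where 14.5% and 19.7% of all genes did. The wild-type rises include those of the dim Gpr82 and Gpr141. The median of the group was 0.03 in wild-type and 0.11 in knockout mice. Gpr183 (EBI2), which guides immune cells along gradients of oxysterols, read 6.45, 6.24 and 6.54 in wild-type mice on chow and 7.93, 7.59 and 7.79 on high-fat diet. In knockout mice Gpr183 went from 6.60, 6.69 and 6.75 to 7.72, 8.09, 8.02 and 7.90. The groups were well apart, and the rises were 1.36 ± 0.12 (adjusted p 1.02e-06) and 1.25 ± 0.11 (adjusted p 1.57e-06). Gpr34, a lysophosphatidylserine receptor of macrophages and mast cells, rose from 4.69, 4.77 and 5.09 to 5.81, 6.08 and 6.54 in wild-type mice. In knockout mice it rose from 4.96, 4.94 and 4.91 to 6.16, 6.40, 6.70 and 6.82. These are 1.29 ± 0.19 (adjusted p 0.000119) and 1.58 ± 0.18 (adjusted p 1.44e-05), or 2.45-fold and 3.00-fold. Values of Gpr34 did not overlap between the diets in either genotype.

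Neighbouring members were compared by gene order, which the choice of members did not use. On chromosome X Gpr82, an orphan, lies next to Gpr34 among the measured genes. It rose by 0.50 ± 0.16 in wild-type (adjusted p 0.0271) and 0.48 ± 0.15 in knockout mice (adjusted p 0.0234), from levels of 3.09 to 3.57 on chow that lie within the range of olfactory receptors. On chromosome 14 Gpr18, a receptor of lymphocytes, lies next to Gpr183 and did not pass (0.10 ± 0.15 and 0.12 ± 0.14). On chromosome 13 Gpr141 and Gpr141b, its close relative, adjoin each other. Gpr141b rose by 0.73 ± 0.22 and 0.76 ± 0.20 (adjusted p 0.0181 and 0.0106), and the dim Gpr141 rose in wild-type mice only by the threshold (0.50 ± 0.11, adjusted p 0.00228, against 0.17 ± 0.10, adjusted p 0.213, in knockout mice; interaction adjusted p 0.501). Gpr82 read 3.57, 3.09 and 3.13 in wild-type mice on chow, 3.95, 3.68 and 3.64 after the high-fat diet, 3.43, 3.27 and 3.48 in knockouts on chow and 3.52, 4.07, 4.12 and 3.79 after the diet. Gpr141b read 6.37, 5.98 and 6.38 in wild-type mice on chow, 7.03, 6.48 and 7.41 after the high-fat diet, 6.28, 5.96 and 6.27 in knockouts on chow and 6.63, 7.25, 7.09 and 6.76 after the diet. Gpr141 read 3.40, 3.22 and 3.33 in wild-type mice on chow, 4.03, 3.58 and 3.85 after the high-fat diet, 3.52, 3.23 and 3.36 in knockouts on chow and 3.52, 3.54, 3.46 and 3.67 after the diet. Wild-type diets did not overlap for any of the 3, and knockout diets overlapped for Gpr141. With the liver score as covariate the wild-type rises of Gpr82 (adjusted p 0.199), Gpr141b (0.27, adjusted p 0.524) and Gpr141 (adjusted p 0.0852) missed the threshold. Gpr82 missed it in wild-type mice without replicates 2 or 3 on chow or 1 on high-fat diet, and in knockout mice without replicates 1 or 2 on chow or 2 or 3 on high-fat diet, with values from 0.40 to 0.65 and from 0.40 to 0.60. Gpr82 also missed it with the replicate block (adjusted p 0.0598 in wild-type and 0.0596 in knockout mice). In wild-type mice it missed with arrays centred on their medians as well (adjusted p 0.0525). Gpr141b missed it in wild-type mice without replicate 2 on chow, 1 or 3 on high-fat diet (0.51 to 0.98 across the arrays left out) and in knockout mice without replicate 2 on chow (adjusted p 0.0551). In a fit of the wild-type arrays alone Gpr141b missed it too (adjusted p 0.06).

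Markers of macrophages rose beside these receptors. Of 11 measured, 9 rose and 1 fell in wild-type mice, and 9 rose and 2 fell in knockout mice. Over all genes 17.7% rose and 18.1% fell in wild-type mice, and 14.5% and 19.7% in knockouts. Their mean was 8.81 to 9.14 on chow and 10.09 to 10.42 after the diet across wild-type arrays, and 9.04 to 9.30 and 10.11 to 10.32 across knockout arrays. Mast cell markers rose too, 5 of 8 in wild-type and 7 of 8 in knockout mice. Their mean was 5.62 to 6.07 and 6.04 to 7.66 in wild-type mice, which overlapped, and 5.78 to 5.96 and 6.51 to 7.51 in knockouts. Their part in the rise of Gpr65, Gpr34, Gpr183, Gpr132 and Gpr141b was not tested. The lymphocyte receptors Gpr171 and Gpr174 did not pass, with Gpr171 at 0.13 ± 0.13 and -0.05 ± 0.12 and Gpr174, a second lysophosphatidylserine receptor, at -0.04 ± 0.13 and 0.26 ± 0.12 in wild-type and knockout mice. Of 7 T cell markers 1 rose and 0 fell in wild-type mice and 1 rose and 1 fell in knockout mice. Of 6 B cell markers 0 passed in either genotype.

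**Figure D3:**
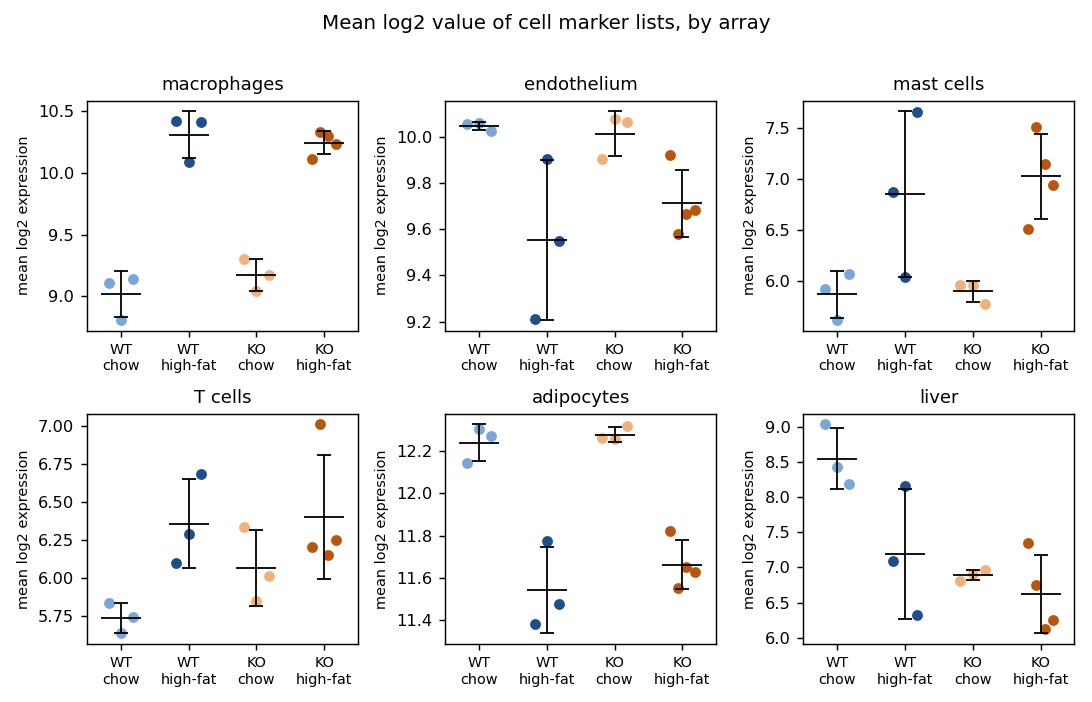
Mean log2 value of 6 marker lists by group; points are arrays and black bars the mean and standard deviation. Macrophage means lie at 8.81 to 9.30 on chow and 10.09 to 10.42 on high-fat diet, and the liver mean is highest in wild-type mice on chow.

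Gpr1, a receptor for the adipokine chemerin, differed in pattern from the genes above. Its values were 6.38, 6.58 and 6.41 in wild-type mice on chow and 5.95, 6.11 and 6.10 on high-fat diet, a fall of 0.40 ± 0.08 (adjusted p 0.00198). In knockout mice they were 6.44, 6.31 and 6.41 on chow and 6.44, 6.43, 6.55 and 6.39 on high-fat diet (0.07 ± 0.08, adjusted p 0.559). On high-fat diet every knockout array lay above every wild-type array. That genotype difference of 0.40 ± 0.08 (unadjusted p 0.000213, adjusted p 0.16) did not pass over all genes, nor did the interaction of 0.47 ± 0.11 (unadjusted p 0.00133, adjusted p 0.32), so a different diet effect in the genotypes was not shown. Cmklr1, the other signalling receptor for chemerin, fell in both genotypes, by 0.61 ± 0.10 and 0.69 ± 0.10. Gpr55, a lysophosphatidylinositol receptor in the olfactory range, read 3.85, 3.88 and 3.81 in wild-type mice on chow, 3.49, 3.68 and 3.72 after the high-fat diet, 3.95, 4.06 and 3.73 in knockouts on chow and 3.73, 3.73, 3.73 and 3.80 after the diet. It did not pass (-0.22 ± 0.08, adjusted p 0.0616, and -0.17 ± 0.08, adjusted p 0.129). Without knockout replicate 3 on chow Gpr55 passed in both genotypes, at -0.26 (adjusted p 0.0214) in knockouts and an unchanged -0.22 (adjusted p 0.0298) in wild-type mice. The wild-type change also passed without knockout replicate 2 on chow (adjusted p 0.0436), where the knockout change was -0.09 (adjusted p 0.467), and with arrays centred on their medians (-0.27, adjusted p 0.0259).

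Fatty acid and metabolite receptors were thinly covered by Gpr names, with 5 members of which 1 rose in each genotype and 0 fell. Among all genes 17.7% rose and 18.1% fell in wild-type mice, and 14.5% and 19.7% in knockouts. Gpr31b, the mouse receptor for the arachidonic acid product 12-HETE, rose from 5.08, 5.22 and 5.11 to 6.07, 5.57 and 6.43 in wild-type mice. It rose from 5.27, 5.17 and 4.88 to 5.94, 6.10, 6.28 and 6.25 in knockout mice. All high-fat arrays lay above all chow arrays, with changes of 0.89 ± 0.18 (adjusted p 0.0014) and 1.04 ± 0.17 (adjusted p 0.000297). The second probe set of Gpr31b differed between the diets by 0.89 and 1.02. With the liver score as covariate the wild-type change of Gpr31b was 0.39 and did not pass (adjusted p 0.0821). Gpr84, the receptor for medium-chain fatty acids that macrophages switch on in inflammation, read 4.50, 4.42 and 4.53 in wild-type mice on chow and 4.42, 4.68 and 4.62 on high-fat diet. Its knockout values were 4.53, 4.24 and 4.25 on chow and 4.48, 4.79, 4.42 and 4.45 on high-fat diet. The diets overlapped in both genotypes, and Gpr84 did not pass (0.09 ± 0.11, adjusted p 0.604, and 0.19 ± 0.11, adjusted p 0.188). Gpr35, a receptor for kynurenic acid, read 6.11, 5.70 and 5.83 in wild-type mice on chow, 6.49, 6.20 and 5.98 after the high-fat diet, 6.15, 5.92 and 5.88 in knockouts on chow and 6.03, 5.98, 5.87 and 5.90 after the diet. Its changes were 0.34 ± 0.13 (adjusted p 0.065) and -0.04 ± 0.13 (adjusted p 0.84). In wild-type mice it passed without replicate 1 on chow (0.45, adjusted p 0.0223) and without replicate 3 after the high-fat diet (0.46, adjusted p 0.0199). Without replicate 1 after the high-fat diet it was 0.21 (adjusted p 0.272).

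Metabolite receptors that have left the Gpr names behind were read from a list that also holds formyl peptide, adenosine and adrenergic receptors. Of its 19 measured genes 1 rose and 6 fell in wild-type mice, and 1 rose and 5 fell in knockouts. Beside this and the lists below, 17.7% of all genes rose and 18.1% fell in wild-type mice, and 14.5% and 19.7% in knockouts. Ffar4 (GPR120), the long-chain fatty acid receptor of adipocytes, fell by 1.37 ± 0.16 in wild-type and 1.61 ± 0.15 in knockout mice. The succinate receptor Sucnr1 fell by 1.15 ± 0.21 and 1.02 ± 0.20, while the sphingosine-1-phosphate receptor S1pr2 rose by 1.61 ± 0.13 and 1.37 ± 0.12. Of 11 adipocyte markers, 1 rose and 9 fell in wild-type mice and 1 rose and 8 fell in knockout mice. Of 25 adhesion receptors under Adgr names, 4 rose and 6 fell in each genotype. Adgre1, a macrophage surface antigen that the macrophage markers also hold, rose by 2.32 ± 0.13 and 1.95 ± 0.13, and Adgrg6 (GPR126) rose by 1.22 ± 0.17 and 0.83 ± 0.16. Adgrg2 (GPR64), known from the epididymal ducts, fell by 2.73 ± 0.18 in wild-type mice and fell by 2.50 ± 0.17 in knockouts. Of 6 measured markers of epididymis and testis 0 passed in wild-type mice, and 0 rose and 1 fell in knockout mice. The mean of these markers was 3.84 to 4.31 across arrays, below the olfactory 95th percentile of 4.36. Markers this dim on average may not show a fall, and their part in the fall of Adgrg2 was not tested.

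Gpr-named proteins of internal membranes or of other families, several of them not G protein-coupled receptors at all, made up 9 members. Of these, 3 rose in wild-type and 2 in knockout mice and 0 fell. Among all genes 17.7% and 14.5% rose, and 18.1% and 19.7% fell, in wild-type and knockout mice. Gpr137b, which sits in the lysosome membrane and controls the nutrient sensor mTORC1 there, rose from 7.81, 7.97 and 8.12 to 10.32, 9.65 and 10.09 in wild-type mice. In knockout mice Gpr137b rose from 8.03, 7.95 and 8.24 to 9.54, 9.91, 9.72 and 9.96. The gap between the diets exceeded the spread within any group. These are rises of 2.05 ± 0.16, or 4.16-fold (adjusted p 4.18e-07), and 1.71 ± 0.15, or 3.27-fold (adjusted p 1.45e-06). Its near-copy Gpr137b-ps could share its probes, so the value may include both. Gpr155, a lysosomal cholesterol sensor, read 8.10, 7.91 and 8.16 in wild-type mice on chow and 8.80, 8.84 and 9.03 on high-fat diet. It read 8.01, 8.17 and 8.20 in knockout mice on chow and 8.79, 8.93, 8.77 and 8.86 on high-fat diet. The spread within groups was small beside the rises of 0.84 ± 0.09 (adjusted p 6.04e-06) and 0.71 ± 0.08 (adjusted p 1.7e-05). Gpr107, a Golgi protein, rose by 0.28 ± 0.05 in wild-type mice (adjusted p 0.00106) and missed the threshold in knockout mice (0.13 ± 0.05, adjusted p 0.0544, passing in 4 of 23 alternatives), although no array overlapped between the diets in either. Its values were 9.11, 9.05 and 9.09 in wild-type mice on chow, 9.39, 9.35 and 9.35 after the high-fat diet, 9.02, 9.11 and 9.11 in knockouts on chow and 9.19, 9.25, 9.25 and 9.15 after the diet. Its relative Gpr108 (-0.08 ± 0.08 and -0.19 ± 0.07, adjusted p 0.471 and 0.0518, the latter passing in 7 of 23 alternatives) and the Golgi pH regulator Gpr89 (-0.03 ± 0.08 and -0.15 ± 0.07, adjusted p 0.799 and 0.128) did not pass.

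**Figure D4:**
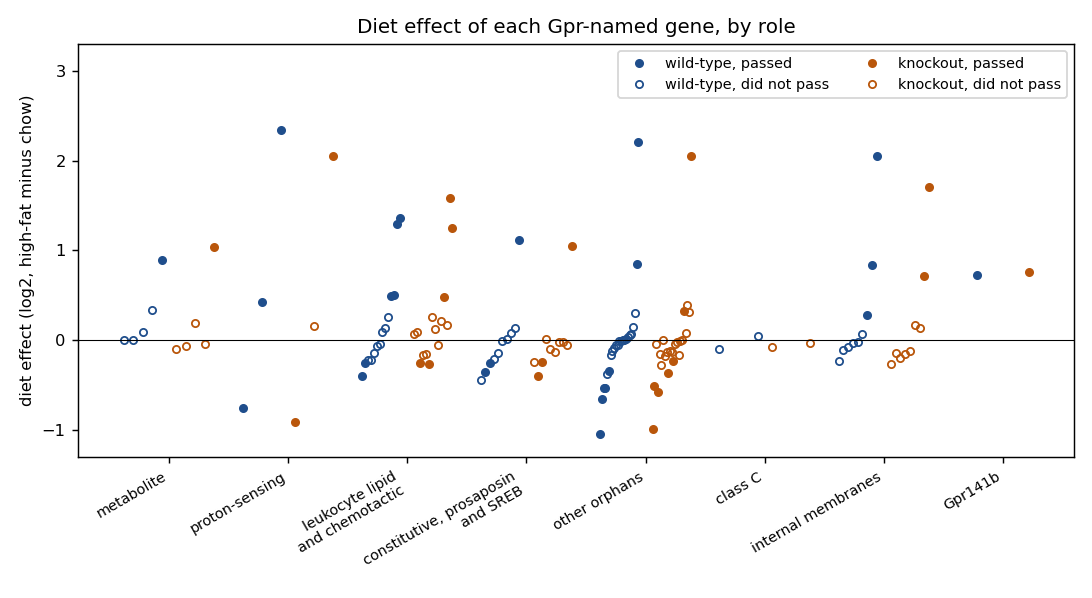
Diet effect (log2, high-fat minus chow) of each of the 67 Gpr genes in wild-type (blue) and knockout (orange) mice, grouped by role; filled points passed the test. Proton-sensing receptors reach from -0.91 to 2.34, and the other orphans from -1.04 to 2.21.

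Other orphan receptors, with no firm ligand, were the largest group, with 23 members, of which 2 rose and 5 fell in each genotype. Of all genes 17.7% rose and 18.1% fell in wild-type mice, and 14.5% and 19.7% in knockouts. Gpr176, which sets the pace of the brain's clock, read 4.95, 4.99 and 4.72 in wild-type mice on chow and 7.18, 6.69 and 7.41 on high-fat diet. In knockout mice it read 5.12, 5.17 and 5.11 on chow and 6.79, 7.37, 7.41 and 7.19 on high-fat diet. No chow array came within reach of a high-fat array. Gpr176 rose by 2.21 ± 0.18, or 4.61-fold (adjusted p 7.29e-07), and by 2.06 ± 0.17, or 4.16-fold (adjusted p 1.08e-06). Gpr153 went from 6.53, 6.92 and 7.00 to 8.01, 7.33 and 7.66 in wild-type mice, a rise of 0.85 ± 0.17 (adjusted p 0.00124, and 0.0757 with the liver score). In knockout mice it stood at 6.96, 7.17 and 6.78 on chow and 7.16, 7.40, 7.36 and 7.20 on high-fat diet, and did not pass (0.31 ± 0.16, adjusted p 0.144), although it did with array weights (adjusted p 0.0425) and with the knockout arrays alone (adjusted p 0.0399). For Gpr153 no difference between the genotypes in the diet effect passed (interaction of -0.53 ± 0.23, adjusted p 0.483).

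Falls among the orphans were led by Gpr165. It read 4.59, 4.45 and 4.68 in wild-type mice on chow and 3.55, 3.57 and 3.48 on high-fat diet, and 4.58, 4.66 and 4.65 against 3.55, 3.70, 3.71 and 3.61 in knockout mice. Arrays of the same diet lay close together, and the fall was 1.04 ± 0.07 in wild-type (adjusted p 2.4e-07) and 0.99 ± 0.07 in knockout mice (adjusted p 3.2e-07). The high-fat values lay within the range of olfactory receptors, where these values do not fix the size of the fall. Gpr146, an orphan with a bright probe set, went from 9.23, 9.41 and 9.37 to 8.59, 8.81 and 8.66 in wild-type mice. Its knockout values were 9.08, 9.19 and 9.23 against 8.82, 8.58, 8.65 and 8.59. Without overlap in either genotype, Gpr146 fell by 0.65 ± 0.08 (adjusted p 3.44e-05) and 0.51 ± 0.08 (adjusted p 0.000192). Gpr75, whose loss is known to protect mice from diet-induced obesity, went from 5.79, 6.06 and 6.17 to 5.50, 5.56 and 5.37 in wild-type mice. In knockout mice it went from 5.64, 5.94 and 6.26 to 5.40, 5.35, 5.36 and 5.33. Every high-fat array lay below every chow array of either genotype, with falls of 0.53 ± 0.14 (adjusted p 0.00799) and 0.58 ± 0.13 (adjusted p 0.00325). With the liver score as covariate the wild-type fall of Gpr75 did not pass (adjusted p 0.1).

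**Figure D5:**
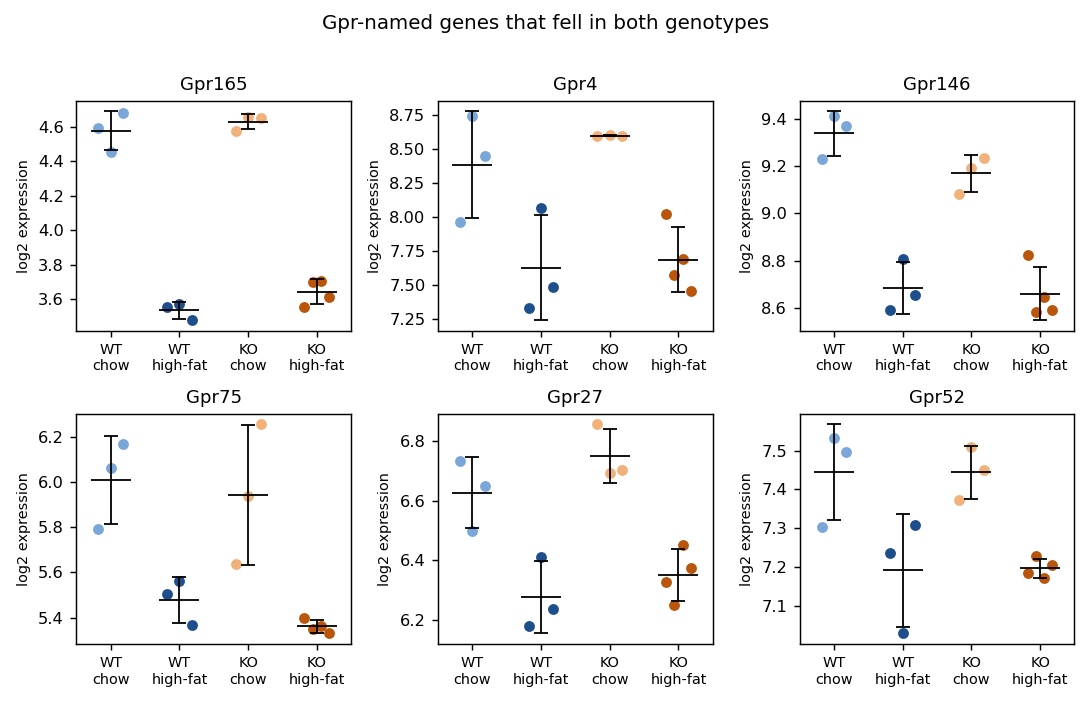
Log2 expression of the 6 Gpr genes that fell in both genotypes, by group; points are arrays and black bars the mean and standard deviation. Gpr165 shows the widest gap against the spread of its arrays, while the wild-type groups of Gpr4 and Gpr52 overlap.

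The group of receptors that are active without a ligand, bind prosaposin or belong to the SREB family held 10 members. Of these, 1 rose and 2 fell in each genotype. Across all genes 17.7% rose and 18.1% fell in wild-type mice, and 14.5% and 19.7% in knockouts. The SREB receptors, conserved orphans of the brain, split: Gpr85 rose, Gpr27 fell and Gpr173 did not pass. Gpr85 read 4.77, 4.68 and 4.59 in wild-type mice on chow and 5.83, 5.40 and 6.15 on high-fat diet. Its knockout values were 4.72, 4.65 and 4.75 on chow and 5.56, 5.78, 5.89 and 5.79 on high-fat diet. The diets were apart in both genotypes, with rises of 1.12 ± 0.15 (adjusted p 5.98e-05) and 1.05 ± 0.14 (adjusted p 7.2e-05). Gpr27 read 6.73, 6.50 and 6.65 in wild-type mice on chow, 6.18, 6.41 and 6.24 after the high-fat diet, 6.86, 6.69 and 6.70 in knockouts on chow and 6.33, 6.25, 6.45 and 6.37 after the diet. It fell by 0.35 ± 0.09 and 0.40 ± 0.09 (adjusted p 0.00941 and 0.003), although with the liver score its wild-type fall did not pass (adjusted p 0.146). Gpr173 stood at -0.20 ± 0.12 and 0.01 ± 0.12. Gpr3, a receptor that raises cAMP without a known ligand and is known from brown fat, stood at -0.0032 ± 0.09 and -0.13 ± 0.08 and did not pass (adjusted p 0.984 and 0.277). Gpr52, known from the striatum, fell by 0.25 ± 0.09 and 0.25 ± 0.08. Its values were 7.30, 7.53 and 7.50 in wild-type mice on chow, 7.24, 7.03 and 7.31 after the high-fat diet, 7.37, 7.51 and 7.45 in knockouts on chow and 7.18, 7.23, 7.17 and 7.21 after the diet, with overlap between the wild-type diets only. Both class C members, the retinal Gpr179 (-0.09 ± 0.09 and -0.07 ± 0.09) and the dim Gpr158 (0.05 ± 0.05 and -0.03 ± 0.05), did not pass.

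Several small changes passed in some, and not in other, fits that left out 1 array. In knockout mice Gpr135 rose by 0.33 ± 0.12 (adjusted p 0.0432), and passed in 6 of the 13 fits that left out 1 array, with values from 0.20 to 0.42 and the lowest without replicate 1 of knockout mice on chow. Gpr19 fell by 0.23 ± 0.08 (adjusted p 0.0478) and passed in 2 of 13, Gpr160 by 0.25 ± 0.08 (adjusted p 0.0282) in 8, and Gpr15, a homing receptor of T cells, by 0.27 ± 0.09 (adjusted p 0.028) in 9. In wild-type mice Gpr152 fell by 0.34 ± 0.12 (adjusted p 0.0422) and passed in 5 of 13, with -0.22 without replicate 3 on chow. Gpr63 fell by 0.54 ± 0.18 (adjusted p 0.0291) and passed in 8, and Gpr25 by 0.26 ± 0.08 (adjusted p 0.0301) in 9. Gpr52 passed in 9 of 13 in each genotype. The arrays whose removal ended these calls were mostly those of the groups compared: all 3 wild-type arrays on high-fat diet and 1 and 3 on chow for Gpr63, and 1 and 2 on chow and 2 and 3 on high-fat diet for Gpr25. For Gpr160 they were knockout arrays 1 and 3 on chow and 2, 3 and 4 on high-fat diet, and for Gpr15 arrays 2 and 3 on chow and 1 and 3 on high-fat diet. For Gpr52 they were 2 and 3 on chow and 1 and 2 on high-fat diet in wild-type mice, and 2 and 3 on chow and 1 and 3 on high-fat diet in knockout mice. Gpr135 missed it without wild-type replicate 3 on either diet, knockout replicates 1 and 2 on chow and 1, 3 and 4 after the diet. Gpr152 missed it without wild-type replicates 2 and 3 on chow, all 3 after the diet, knockout replicate 1 on chow and 2 and 3 after the diet. Gpr19 kept its call only without wild-type or knockout replicate 1 on chow. Arrays of the other genotype enter only the estimate of the spread. Array values show how small these changes were. Gpr135 read 5.88, 6.15 and 5.99 in wild-type mice on chow, 5.90, 6.19 and 6.15 after the high-fat diet, 5.77, 6.11 and 6.21 in knockouts on chow and 6.41, 6.20, 6.40 and 6.43 after the diet. Gpr63 read 5.75, 5.46 and 5.80 in wild-type mice on chow, 5.19, 5.07 and 5.14 after the high-fat diet, 4.79, 5.54 and 5.64 in knockouts on chow and 5.36, 5.21, 5.36 and 5.20 after the diet. Of these genes Gpr63 had the widest change. Its knockout change was -0.04 ± 0.16 and did not pass (adjusted p 0.87), but it did without replicate 1 on chow (-0.31, adjusted p 0.0467). Gpr152 read 4.39, 4.68 and 4.90 in wild-type mice on chow, 4.36, 4.19 and 4.39 after the high-fat diet, 4.56, 4.65 and 4.48 in knockouts on chow and 4.45, 4.23, 4.36 and 4.13 after the diet. Gpr25 read 4.45, 4.57 and 4.27 in wild-type mice on chow, 4.27, 4.11 and 4.14 after the high-fat diet, 4.27, 4.19 and 4.25 in knockouts on chow and 4.38, 4.32, 4.22 and 4.39 after the diet. The wild-type high-fat means of Gpr152 (4.31) and Gpr25 (4.17) lay below the olfactory 95th percentile of 4.36. Gpr15 lay below it in the mean of every group, the highest being 3.65. At such levels the values do not fix the size of a fall. Neither Gpr152 nor Gpr25 passed in knockouts, though Gpr152 (-0.27 ± 0.11, adjusted p 0.0853) did without wild-type replicate 1 on chow (adjusted p 0.0412), with array weights (adjusted p 0.048) and with the knockout arrays alone (adjusted p 0.0424). Gpr160 read 7.51, 7.47 and 7.64 in wild-type mice on chow, 7.26, 7.47 and 7.23 after the high-fat diet, 7.76, 7.53 and 7.60 in knockouts on chow and 7.46, 7.35, 7.35 and 7.35 after the diet. Gpr15 read 3.38, 3.41 and 3.47 in wild-type mice on chow, 3.37, 3.25 and 3.44 after the high-fat diet, 3.40, 3.82 and 3.72 in knockouts on chow and 3.37, 3.43, 3.33 and 3.41 after the diet. Gpr19 read 6.35, 6.51 and 6.55 in wild-type mice on chow, 6.51, 6.45 and 6.43 after the high-fat diet, 6.56, 6.73 and 6.86 in knockouts on chow and 6.51, 6.51, 6.51 and 6.42 after the diet. None of these 3 passed in wild-type mice, but Gpr160 (-0.22 ± 0.09, adjusted p 0.0666) did with centred arrays (-0.27, adjusted p 0.0167), a second quantile normalization (-0.28, adjusted p 0.0157), array weights (-0.26, adjusted p 0.0348) and without replicate 2 after the high-fat diet (-0.29, adjusted p 0.0191). With the liver score as covariate Gpr152 (adjusted p 0.0667), Gpr63 (0.184), Gpr25 (0.232), Gpr135 (0.0577) and Gpr19 (0.0594) missed the threshold. With the replicate block Gpr152 (adjusted p 0.06), Gpr135 (0.0746), Gpr19 (0.109), Gpr160 (0.083) and Gpr15 (0.0536) missed it. So did Gpr52, at 0.0573 in wild-type and 0.067 in knockout mice. Fits of the compared groups alone ended the calls of Gpr152 (0.112), Gpr25 (0.103), Gpr15 (0.0509), Gpr19 (0.0641) and wild-type Gpr52 (0.135). Array weights ended those of Gpr63 (0.063) and Gpr25 (0.0606). A second quantile normalization ended the calls of Gpr152 (adjusted p 0.0607), Gpr135 (0.0656) and Gpr15 (0.0887). Gpr62, an oligodendrocyte orphan, was steadier: it fell in knockout mice by 0.37 ± 0.07 (adjusted p 0.00137) and passed in all 13 fits, while in wild-type mice it stood at -0.05 ± 0.08 (interaction adjusted p 0.383). Its values were 4.93, 4.98 and 4.88 in wild-type mice on chow, 4.89, 4.87 and 4.88 after the high-fat diet, 4.99, 5.22 and 5.06 in knockouts on chow and 4.79, 4.68, 4.73 and 4.70 after the diet.

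The loss of P2X7 was compared within each diet. By limma 0 of 67 Gpr genes passed on chow (0.133% of all genes did), 0 on high-fat diet (0.0425% of all genes) and 0 for genotype averaged over the diets (0.106% of all genes). At an unadjusted p under 0.05 there were 4, 8 and 5 Gpr genes, where 9.62%, 7.41% and 7.23% of all genes lay. The smallest adjusted p among Gpr genes was 0.392 on chow, for Gpr19 (0.24 ± 0.09), and 0.16 on high-fat diet, for Gpr1. Averaged over the diets it was 0.567, again for Gpr1 (0.16 ± 0.06), with Gpr183 (0.21 ± 0.08) and the orphan Gpr139 (-0.13 ± 0.06) next. Genotypes did not overlap on chow for 7 Gpr genes higher and 0 lower in knockouts (9.3% and 5.64% of all genes), and after the high-fat diet for 4 and 3 (2.41% and 4.27%). On chow the differences ran from -0.35 to 0.30, on high-fat diet from -0.38 to 0.40. Gpr15 (0.23 ± 0.09) and Gpr183 (0.27 ± 0.12) followed on chow, and Gpr107 (-0.15 ± 0.05) and Gpr141 (-0.27 ± 0.10) on high-fat diet. Chromosome 5, which holds P2rx7, holds 2 members, Gpr146 at 214 measured genes from it and Gpr12 at 304, and neither passed for genotype.

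The diet effect was alike in order in the 2 genotypes. Across the 67 genes the effects in wild-type and knockout mice, which share no arrays, correlated at r of 0.95 (Spearman 0.815), against 0.92 over all 18820 genes; the genes share arrays within a genotype and are not independent. For the interaction 0 Gpr genes passed (0% of all genes did), and 5 had an unadjusted p under 0.05, namely Gpr1, Gpr25 (0.35 ± 0.12), Gpr62 (-0.31 ± 0.11), Gpr153 and Gpr141 (-0.33 ± 0.15). Of all genes 9.72% did. Under every alternative run, the counts for genotype and for the interaction were 0.

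Genes that carry the signal of these receptors were read from lists of the pathway. Beside these lists, 17.7% of all genes rose and 18.1% fell in wild-type mice, and 14.5% and 19.7% in knockouts. Of 27 G protein subunits 8 rose and 6 fell in each genotype. Gna12, an alpha subunit, rose by 0.72 ± 0.06 in wild-type and 0.76 ± 0.05 in knockout mice, and the gamma subunit Gng7 fell by 1.16 ± 0.11 and 1.09 ± 0.10. Of 18 regulators of G protein signalling, which shorten the signal, 6 rose and 3 fell in each genotype. Rgs1 rose most, by 5.39 ± 0.38 in wild-type and 3.91 ± 0.35 in knockout mice. Rgs18 rose by 2.04 ± 0.21 and 1.93 ± 0.20 and Rgs2 by 2.14 ± 0.24 and 1.96 ± 0.22, while Rgs5 fell by 1.06 ± 0.14 and 0.50 ± 0.14. Among 18 adenylyl cyclases and phosphodiesterases, the enzymes that make and break cAMP, 5 rose and 3 fell in wild-type mice and 4 rose and 4 fell in knockout mice. Adcy7, the cyclase of immune cells, rose by 2.05 ± 0.13 and 1.45 ± 0.12, and Pde3b, the phosphodiesterase through which insulin restrains lipolysis, fell by 1.42 ± 0.15 and 1.17 ± 0.14. Of 7 receptor kinases and arrestins, 3 rose and 1 fell in wild-type mice and 2 rose and 1 fell in knockout mice, with beta-arrestin 2 (Arrb2) up by 0.98 ± 0.11 and 0.80 ± 0.11. No gene of these lists passed for genotype or the interaction.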

How the data were processed

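The authors deposited log2 values for each probe set, made with RMA, per the submitters' processing notes, from 100 ng of total RNA on Affymetrix arrays, per the labels' protocols; the version and build are not given in the sources used here. No further normalization was applied. Of 35556 probe sets, 21218 named 1 gene, 1881 several and 12457 none; 18820 genes were tested, each by its brightest probe set. The 67 members had 68 such probe sets, and all matched RefSeq by Entrez ID.

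One linear model with a mean per group was fitted to all 13 arrays with limma 3.58.1 (R 4.3.3), with variances moderated on an intensity trend. Genes passed where the Benjamini-Hochberg adjusted p, taken across all 18820, was under 0.05. The fit was tested on simulated data. The number of arrays limits the precision. Figures used Python 3.11.15 and matplotlib 3.10.9.

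Members and lists were chosen with earlier results of these data known. Array values were given for the 15 largest rises and up to 15 largest falls that passed and for a named list, changes for the 3 smallest p per genotype contrast and up to 4 passing genes per role and pathway list (2 where none passed), and levels for the 5 highest and 5 lowest genes. Gpr18, Gpr171, Gpr174, Gpr173, Gpr3, Gpr12 and the dim receptors named together are outside that rule and were picked with their values known. Alternatives changed the variance model, scaling, dim filter, probe sets, array weights, groups fitted, minimum fold, replicate block and liver covariate, and left out each array. The labels do not say whether replicate numbers pair the arrays. Deviations of same-numbered arrays correlated at -0.30 to 0.22, over 0.1 in 6 of 18 pairs. With so few arrays per group this cannot settle whether they were paired.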

Additional observations from a re-analysis of the deposited data

Results flagged for a closer look

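In the knockout mice on high-fat diet, the only group of 4, the highest or lowest array stood apart from the others by Dixon's test for 6 of 41 genes examined. Chance gives about 1 in 20 for independent genes. These genes share the same 4 arrays, so that rate is only a rough guide. Gpr135 had a lowest value of 6.20, next to 6.40, in replicate 2. Gpr84 had a highest value of 4.79, next to 4.48, and the dim Gpr101 a lowest value of 3.19, next to 3.37, also in replicate 2. Gpr160 had a highest value of 7.46, next to 7.35, in replicate 1. In Gpr19 and Gpr55 the other 3 arrays held 1 identical value (6.51 and 3.73), which gives the highest possible ratio whatever the gap, so these are not to be read against that chance rate; the lowest Gpr19 value of 6.42 and the highest Gpr55 value of 3.80 were both in replicate 4.

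Probe sets naming several genes were outside the comparisons. The one shared by Gpr137b and its near-copy Gpr137b-ps was higher on high-fat diet by 1.98 in wild-type and 1.65 in knockout mice, with no overlap. One of the pair shared by Lypd1 and Gpr39 was higher by 0.35 and 0.70, with no overlap, while the other overlapped between the diets in wild-type mice. The probe set naming Gpr17 and Lims2 was lower, by -0.68 and -0.84, with no overlap in either genotype. Both sets naming Gpr137 and Bad were lower in knockouts without overlap (-0.22 and -0.29) and overlapped in wild-type mice (-0.08 and -0.10).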

How the results depend on the processing

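Of 45 calls for diet on named genes, 25 held under every alternative run, 20 were lost under 1 or more and 0 reversed. Of 37 uncalled diet changes of named genes, 10 passed under 1 or more alternatives (Gpr107, Gpr108, Gpr152, Gpr153, Gpr63, Gpr101 and Gpr55 in knockouts, Gpr160, Gpr35 and Gpr55 in wild-type mice). Calls of Gpr65, Gpr176, Gpr137b, Gpr34, Gpr183, Gpr85, Gpr155, Gpr165 and Gpr146 held in both genotypes. In wild-type mice, rises numbered 14 and falls 10. With the liver score as covariate they numbered 8 and 4. Falls numbered 6 with only the wild-type arrays fitted, and 3 were at least 1.5-fold. Across the arrays left out, rises ranged from 12 to 16 and falls from 6 to 12. In knockout mice, falls numbered 10, of which 2 were at least 1.5-fold; with the replicate block 6 passed, and across the arrays left out 6 to 12, with rises from 8 to 11. The block moved no other count by over 1.5 times, and Gpr35 passed in wild-type mice with it (adjusted p 0.0212). With array weights, rises and falls in knockout mice were 14 and 14. The fits of 2 groups alone were not run for the averaged genotype effect and the interaction, which need all 4. Signal limits what can be read for the 20 genes within the olfactory range, whose levels have no order.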

Other observations

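Some markers of other cells in the tissue moved with the diet as well. Beside them, 17.7% of all genes rose and 18.1% fell in wild-type mice, and 14.5% and 19.7% in knockouts. All 6 mesothelial markers fell in both genotypes, with a mean of 9.30 to 9.51 on chow and 7.40 to 8.63 after the diet in wild-type mice and 8.81 to 9.61 and 8.06 to 8.33 in knockouts. Of 7 markers of smooth muscle and pericytes 1 rose and 4 fell in wild-type mice and 2 rose and 2 fell in knockouts. Of 7 fibroblast and preadipocyte markers 2 rose and 1 fell in wild-type mice and 3 rose and 1 fell in knockouts. Of 6 neutrophil markers 2 rose and 1 fell in each genotype. Of 9 liver transcripts 0 rose and 5 fell in wild-type mice, and 1 rose and 1 fell in knockouts. Of 5 markers of nervous tissue 1 fell in wild-type mice and 0 passed in knockouts.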
